A study of Homo sapiens with 4 samples.

Results

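The genes described here encode the digestive enzymes, membrane proteins and proton pump of the lysosome, the acidic compartment in which cells degrade proteins, sugars and lipids. They are defined by symbol: 33 listed genes plus every symbol beginning ATP6V0 or ATP6V1, 23 of them. The 19389 genes analysed include 53 of these, and 3 listed glycosidases are not analysed here. The genes fall into cathepsins (9), glycosidases (5 with a value), other hydrolases and cofactors (9), lysosomal membrane proteins (7) and the proton pump (23). Their mRNA was measured in SW620, an established line from human colorectal cancer, with 2 libraries of cells treated with H2O2 (hydrogen peroxide) and 2 of control SW620. The sample labels give the treatment as 150 µM for 2 days, while the text of the series writes the same figure in mM. Its title calls the treated cells senescent, and lysosomal enzyme activity is widely used as a mark of that state. All 4 libraries come from this 1 line, and nothing in the labels shows separate cultures within a group. The p-values therefore reflect the spread among these 4 samples alone, and that spread may be technical.

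Lysosomal enzymes are made in the endoplasmic reticulum, and most carry a mannose 6-phosphate tag by which receptors deliver them to the lysosome. Cathepsins cleave proteins, glycosidases remove sugars from glycogen, glycoproteins and glycolipids, and other hydrolases take apart lipids and sulfated molecules. The vacuolar ATPase pumps protons into the lumen: its soluble V1 sector hydrolyses ATP, and its membrane V0 sector carries the protons. Several subunits exist as paralogs, some used in most cells and others mainly in kidney, bone or nerve. Many of these genes are known targets of TFEB and TFE3, transcription factors that bind the hexamer CACGTG and related sequences in promoters.

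Promoter sequences are shown for 5 members, because they differ both in that hexamer and in their values below. Each line gives the 250 bases that precede the transcript start in RefSeq (GRCh38.p14), on the plus strand, with CACGTG in capitals. They lie at chr17:80101331-80101580 for GAA, chr13:113296989-113297238 for LAMP1, chr19:7522374-7522623 for MCOLN1, chr20:45891085-45891334 for CTSA and chr17:7579388-7579637 for CD68. For CD68, GAA and CTSA the RefSeq start lies inside the locus given in the deposited table, and other symbols share that of CTSA. The CD68 stretch holds no copy of the hexamer, and the others hold at least 2.
GAA: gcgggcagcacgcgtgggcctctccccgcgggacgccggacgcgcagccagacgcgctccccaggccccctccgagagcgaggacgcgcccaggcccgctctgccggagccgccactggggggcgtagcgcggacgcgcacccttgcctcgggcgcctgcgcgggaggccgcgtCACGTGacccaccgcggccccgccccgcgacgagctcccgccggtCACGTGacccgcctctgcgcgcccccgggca
LAMP1: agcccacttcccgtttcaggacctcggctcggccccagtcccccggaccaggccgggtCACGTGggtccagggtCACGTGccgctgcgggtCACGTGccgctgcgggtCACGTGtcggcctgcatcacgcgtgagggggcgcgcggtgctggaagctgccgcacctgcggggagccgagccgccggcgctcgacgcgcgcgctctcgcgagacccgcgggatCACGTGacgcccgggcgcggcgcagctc
MCOLN1: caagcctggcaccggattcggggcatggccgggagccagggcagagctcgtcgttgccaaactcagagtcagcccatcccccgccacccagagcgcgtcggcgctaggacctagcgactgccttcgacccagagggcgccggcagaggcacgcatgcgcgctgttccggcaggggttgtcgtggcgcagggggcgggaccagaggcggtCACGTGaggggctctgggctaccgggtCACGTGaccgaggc
CTSA: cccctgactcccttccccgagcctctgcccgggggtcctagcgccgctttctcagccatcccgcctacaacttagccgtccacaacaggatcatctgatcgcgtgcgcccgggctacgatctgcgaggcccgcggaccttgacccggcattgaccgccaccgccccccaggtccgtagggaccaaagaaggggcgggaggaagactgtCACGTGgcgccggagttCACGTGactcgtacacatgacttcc
CD68: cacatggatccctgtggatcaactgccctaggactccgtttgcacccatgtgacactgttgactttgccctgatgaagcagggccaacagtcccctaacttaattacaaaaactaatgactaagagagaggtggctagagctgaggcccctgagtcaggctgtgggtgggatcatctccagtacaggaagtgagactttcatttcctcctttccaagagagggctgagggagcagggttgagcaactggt

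Levels are in FPKM, fragments scaled by transcript length and by the mapped fragments of the library, so that they can be compared between genes. The columns summed to 574782 and 617668 FPKM in the H2O2 libraries and to 695837 and 660860 FPKM in the controls, with 14563 to 15828 genes above 0. Read depth is unknown. Of 9 markers of colon epithelium, 2 lay above the controls in both H2O2 libraries and 3 below. Among all genes that reached 1 FPKM in at least 2 libraries, 19.3% lay above and 24.0% below. KRT8, a keratin of simple epithelia, had 2669 and 2887 FPKM in the H2O2 libraries against 3616 and 3281 FPKM in controls. EPCAM, an epithelial adhesion molecule, had 278 and 215 FPKM in H2O2 libraries, against 336 and 295 FPKM in controls, while CDH1, E-cadherin, had 22.98 and 16.6 FPKM against 14.8 and 9.93 FPKM. CDX2, an intestinal transcription factor, lay between 1.05 and 4.68 FPKM, and CDH17 and KRT20, markers of intestinal differentiation, were under 1 FPKM throughout.

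Among the lysosomal genes, CD68 differed most, with smaller differences in the same direction for CTSB, CTSH, GAA, SMPD1 and NPC1, whereas the groups overlapped for 24 of the 46 genes tested. Of the 53 genes, 46 reached 1 FPKM in at least 2 of the 4 libraries and were tested with limma on log2(FPKM + 1). None passed an adjusted p under 0.05, and 0 of all 11318 genes tested did (0%). The smallest adjusted p was 0.202 among the 46 and 0.0511 over all genes. At an unadjusted p under 0.05, 7 of the 46 were higher in H2O2 libraries (15.2%), where 6.22% of all genes were. ATP6V0A4, one of the 7, and ATP6V1B1, whose values were lower, each reached 1 FPKM in 1 group only, which nearly fixes the direction. Without such genes, a choice made after the values were seen, 6 of 44 were higher (13.6%), against 5.24% of 11119. None of the 46 was lower at that level, where 4.91% of all genes were lower and 11.1% differed in either direction. Log2 changes are H2O2 minus control throughout, and the pseudocount of 1 makes them understate the change of low genes.

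Both H2O2 libraries lay above both controls for 11 of the 46 genes (23.9%), against 19.3% of all genes tested. They lay below both controls for another 11 (23.9%), against 24.0% of all genes. In the other 24 genes the groups overlapped. The median log2 change was 0.05 over the 46 genes and -0.03 over all genes tested, and 22 of the 46 lay within 0.2 of no change. The treated libraries were not alike: 35 of the 46 genes had a higher value in H2O2 library 2 than in H2O2 library 1, and 32 of the 46 had a higher value in control 2 than in control 1. Over all genes these counts were 5566 and 5605 of 11318. The median log2 difference of the 46 genes from the control mean was -0.07 in H2O2 library 1 and 0.14 in H2O2 library 2. In RNA of a whole culture, fewer cells that express a gene and less of its RNA per cell cannot be told apart.

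**Figure D1:**
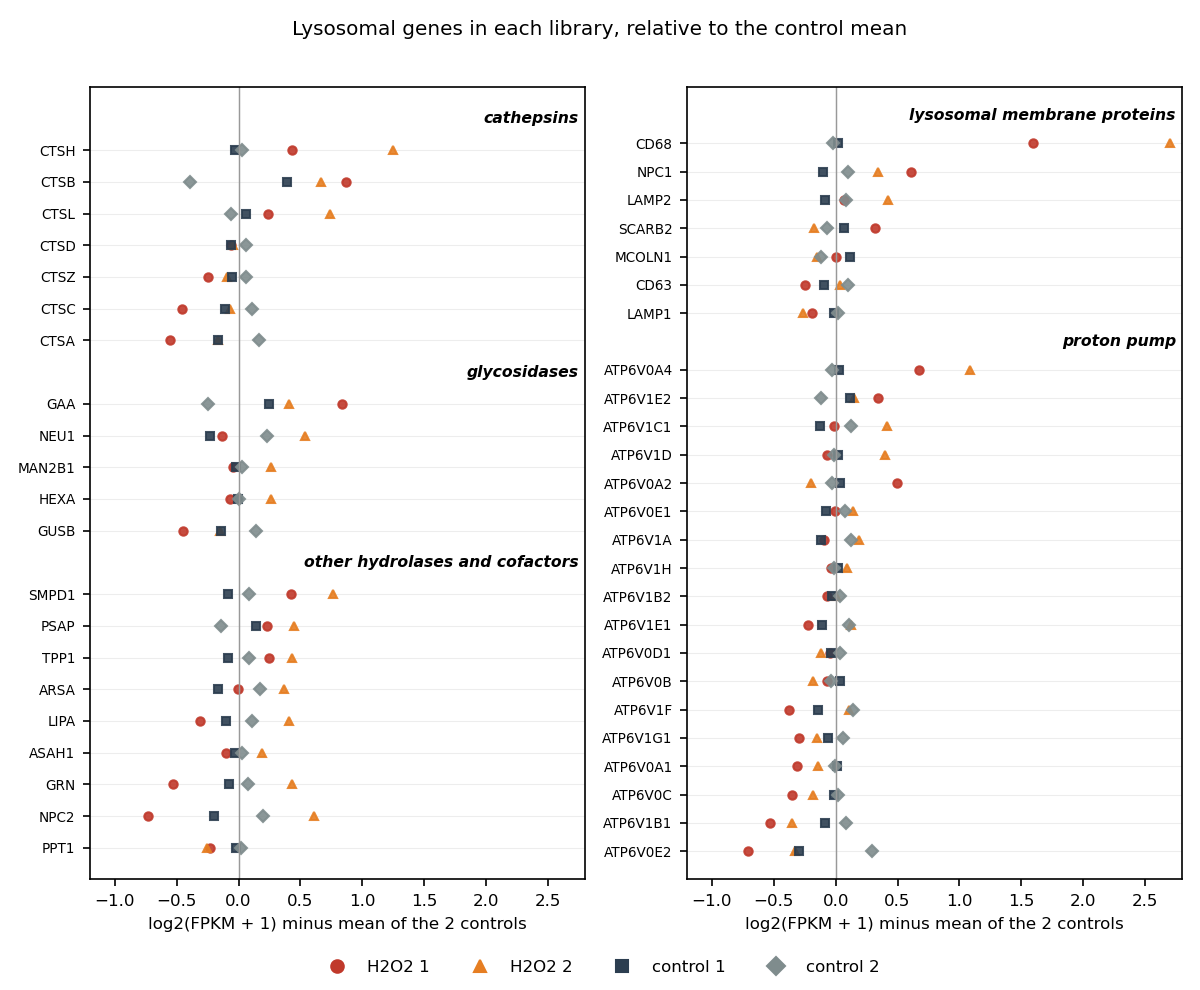
Each of the 46 tested lysosomal genes in each library, as log2(FPKM + 1) minus the mean of the 2 controls, grouped by class and ordered by the mean difference. The H2O2 libraries (circles and triangles) of CD68 stand far to the right of its controls (squares and diamonds), while those of most pump subunits lie within 0.5 of the control mean.

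The cathepsins shared no direction: 3 of the 7 tested had a positive change and 4 a negative one, with a median of -0.05. CTSB, CTSH and CTSL were above the controls in both H2O2 libraries, and CTSZ was below in both. Summed over the 7, cathepsin mRNA was 580.3 and 632 FPKM in the H2O2 libraries against 596 and 611 FPKM in controls, so these sums overlapped while the mix of cathepsins differed.

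CTSB encodes cathepsin B, an abundant cysteine protease that can also act outside the lysosome. It had 157 and 136 FPKM in the H2O2 libraries, against 113 and 65.1 FPKM in controls, a change of 0.77 ± 0.28 (SE; adjusted p = 0.414 by limma). The groups did not overlap, but the 2 controls lay further apart than the nearest values of the groups. Without control 2 the change was 0.37, and without control 1 it was 1.16. As a share of all cathepsin FPKM, a measure that multiplying a library by any factor leaves as it is, CTSB made up 27.1% and 21.5% in H2O2 libraries, against 18.9% and 10.7% in controls. Its locus in the table was chromosome 8, positions 11842524 to 11869448 on hg38.

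CTSH and CTSL, 2 further cysteine proteases, were present at far lower levels. CTSH, an aminopeptidase, had 4.84 and 9.24 FPKM in the H2O2 libraries, against 3.24 and 3.41 FPKM in controls. The controls were close together, and the H2O2 libraries were far apart, library 2 being the higher. The change was 0.84 ± 0.29 (SE; adjusted p = 0.393 by limma), with 0.43 when H2O2 library 2 was left out and 1.24 when H2O2 library 1 was left out. Without H2O2 library 1 the adjusted p was 0.0412, the only one of the 4 fits leaving out a library in which CTSH passed. CTSL, an endopeptidase with a broad range of substrates, had 5.06 and 7.55 FPKM in H2O2 libraries, against 4.35 and 3.93 FPKM in controls (0.49 ± 0.22, SE; adjusted p = 0.488 by limma). Its change was 0.24 without H2O2 library 2 and 0.74 without H2O2 library 1.

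The other abundant cathepsins were level or slightly lower. CTSD, the main aspartic protease of the lysosome, had 144.1 and 146 FPKM in H2O2 libraries, against 144.5 and 157 FPKM in controls, and its values overlapped. CTSC, which activates proteases of immune granules by removing dipeptides, had 129 and 168 FPKM in the H2O2 libraries, against 164 and 191 FPKM in controls. CTSA, a carboxypeptidase that also shields neuraminidase and beta-galactosidase from degradation, had 40.3 and 52.97 FPKM against 52.90 and 66.96 FPKM in controls (-0.36 ± 0.21, SE; adjusted p = 0.598 by limma), and -0.17 without H2O2 library 1. CTSZ, a carboxypeptidase, had 100.4 and 111.6 FPKM in H2O2 libraries, against 114.5 and 123.9 FPKM in controls. Its change was -0.17 as deposited but positive under each of 3 other scalings of the libraries (TPM, quantile and loess). By share of cathepsin FPKM, CTSZ was 17.3% and 17.6% in H2O2 libraries against 19.2% and 20.3% in controls, and CTSA was 6.93% and 8.37% against 8.87% and 10.96%. A larger share of CTSB, as in the H2O2 libraries, makes the other shares smaller. The shares of CTSZ and CTSA therefore do not show that either gene was lower. CTSF and CTSS did not reach the level for testing. CTSS, a cathepsin of antigen-presenting cells, had 0.332 and 0.849 FPKM in H2O2 libraries and 0.0231 and 0.0711 FPKM in controls. CTSF had 0.0195 and 0.230 FPKM in H2O2 libraries and was listed at 0 in both controls.

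Glycosidases had a median change of 0.11, with 4 of the 5 tested positive, but only GAA had groups that lay apart upward. GAA, the alpha-glucosidase that breaks down glycogen in the lysosome, had 69.5 and 51.1 FPKM in H2O2 libraries, against 45.7 and 32.2 FPKM in controls. Its lowest treated value was above its highest control value. The change was 0.62 ± 0.24 (SE; adjusted p = 0.427 by limma), and between 0.38 and 0.87 when each library was left out in turn. The table places it on chromosome 17, positions 80101556 to 80119879 on hg38.

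GUSB, the beta-glucuronidase, was lower, with 26.02 and 32.27 FPKM in H2O2 libraries, against 32.34 and 39.68 FPKM in controls. The gap between its groups was narrow beside the spread within them (-0.30 ± 0.19, SE; adjusted p = 0.633 by limma), and the change was -0.15 without H2O2 library 1. HEXA, the alpha subunit of beta-hexosaminidase, had 50.9 and 64.1 FPKM in H2O2 libraries, against 53.2 and 53.4 FPKM in controls. NEU1, the lysosomal neuraminidase, had 27.3 and 44.1 FPKM against 25.5 and 35.5 FPKM in controls. MAN2B1, an alpha-mannosidase, had 14.9 and 18.7 FPKM against 15.1 and 15.7 FPKM in controls. For HEXA, NEU1 and MAN2B1 the groups overlapped, and the change became negative when H2O2 library 2 was left out. The 5 glycosidases summed to 188.5 and 210.3 FPKM in H2O2 libraries, against 171.8 and 176.4 FPKM in controls. Only GAA among them lay apart upward, so the gap between the sums does not show a rise across the class.

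Among the other hydrolases and cofactors, SMPD1, TPP1 and PSAP lay above the controls in both H2O2 libraries and PPT1 lay below, and the median change of the 9 was 0.05. SMPD1, the acid sphingomyelinase that releases ceramide, had 11.7 and 15.1 FPKM in H2O2 libraries, against 7.95 and 9.09 FPKM in controls. Its change was 0.59 ± 0.19 (SE; adjusted p = 0.371 by limma), and 0.42 to 0.76 when each library was left out in turn. Its locus was chromosome 11, positions 6390431 to 6394998.

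TPP1, a tripeptidyl peptidase, had 39.4 and 44.997 FPKM in H2O2 libraries, against 31.2 and 35.2 FPKM in controls (0.34 ± 0.17, SE; adjusted p = 0.540 by limma). PSAP is the precursor of the saposins, small proteins that help enzymes reach sphingolipids. It had 149 and 174 FPKM in H2O2 libraries, against 141 and 115 FPKM in controls (0.34 ± 0.19, SE; adjusted p = 0.583 by limma), and 0.20 without control 2. PPT1, which removes palmitate from proteins, had 59.2 and 58.4 FPKM in H2O2 libraries, against 68.8 and 70.7 FPKM in controls (-0.24 ± 0.16, SE; adjusted p = 0.628 by limma), and it stayed negative under TPM, quantile and loess scaling.

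Some members of this class differed widely between the 2 H2O2 libraries. GRN, progranulin, had 63.8 and 125.8 FPKM in H2O2 libraries against 88.1 and 97.8 FPKM in controls. NPC2, a soluble cholesterol carrier, had 16.6 and 43.6 FPKM against 24.5 and 32.4 FPKM in controls. LIPA, the acid lipase, had 35.3 and 58.7 FPKM against 40.8 and 47.4 FPKM in controls. In these 3 genes the controls sat between the treated libraries. ARSA, which removes sulfate from sulfatides, had 4.33 and 5.88 FPKM in H2O2 libraries and 3.75 and 5.01 FPKM in controls. ASAH1, the acid ceramidase that acts on the product of SMPD1, had 31.1 and 38.2 FPKM in H2O2 libraries and 32.8 and 34.0 FPKM in controls. Over the 9 genes the median difference from the control mean was -0.10 in H2O2 library 1 and 0.43 in H2O2 library 2.

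Among the membrane proteins, CD68 was 6.78 times as high in H2O2 libraries as in controls by group means, and NPC1 was 1.44 times as high. CD68 encodes a heavily glycosylated protein of late endosomes and lysosomes that is abundant in macrophages. It had 7.65 and 17.7 FPKM in H2O2 libraries, against 1.92 and 1.83 FPKM in controls, with means of 12.7 ± 7.13 FPKM and 1.87 ± 0.064 FPKM (SD, n = 2 each). Both treated values were well clear of the controls, and they also differed widely from each other. The change was 2.15 ± 0.36 (SE; adjusted p = 0.202 by limma). It was 1.59 when H2O2 library 2 was left out and 2.71 when H2O2 library 1 was left out.

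For CD68 the adjusted p depended on the fit. It was 0.0444 with all libraries rescaled to 1 common total (TPM), 0.0119 without H2O2 library 1, 0.0499 without H2O2 library 2, 0.0484 without control 1 and 0.112 without control 2. It was 0.329 with quantile and 0.305 with loess scaling, 0.334 without a filter and 0.296 with a mean FPKM of at least 5. Under a pseudocount of 0.1 or 5 it was 0.175 or 0.264, and without a trend in the variance prior 0.184. With the replicate number as a block it was 0.000722 by limma, but the labels do not say whether that number marks a shared culture. An exact permutation test on 2 against 2 libraries cannot give a two-sided p below 0.333. CD68 lies at chromosome 17, positions 7579467 to 7582113 on hg38, and no other symbol shares its locus in the table.

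Because CD68 marks macrophages, 11 leukocyte genes were read beside it. TYROBP was listed at 0 in all 4 libraries, and PTPRC, the common leukocyte antigen, did not exceed 0.00822 FPKM. Of the 11 genes, 10 stayed under 1 FPKM in every library. CSF1R, the macrophage growth factor receptor, had 0.101 and 0.138 FPKM in H2O2 libraries, against 0.0195 and 0.0161 FPKM in controls. LYZ, lysozyme, which some epithelia also make, was the exception, with 4.41 and 18.4 FPKM in H2O2 libraries against 2.95 and 4.43 FPKM in controls. As with CD68, the second H2O2 library was the highest. The list summed to 4.99 and 19.2 FPKM in H2O2 libraries, against 3.29 and 4.88 FPKM in controls. In it 4 genes lay apart upward and 1 downward, each of them under 1 FPKM in every library. The 7 fibroblast markers summed to 6.41 and 13.0 FPKM in H2O2 libraries against 5.52 and 10.3 FPKM in controls, and 2 of them, THY1 and PDGFRB, lay apart upward and none downward. THY1 had 1.37 and 1.93 FPKM in H2O2 libraries, against 0.361 and 0.159 FPKM in controls. The 3 erythroid markers summed to 3.83 and 9.64 FPKM in H2O2 libraries, against 3.50 and 6.71 FPKM in controls, with HBB at 0 throughout and no gene apart. The 4 endothelial markers summed to 2.66 and 2.02 FPKM in H2O2 libraries, against 0.360 and 0.223 FPKM in controls, most of it TIE1 in the H2O2 libraries, and 3 of them lay apart upward. Over all genes tested, 19.3% lay apart upward and 24.0% downward, but most of these marker genes were too low for testing. The part of these marker genes in the CD68 result was not tested.

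**Figure D2:**
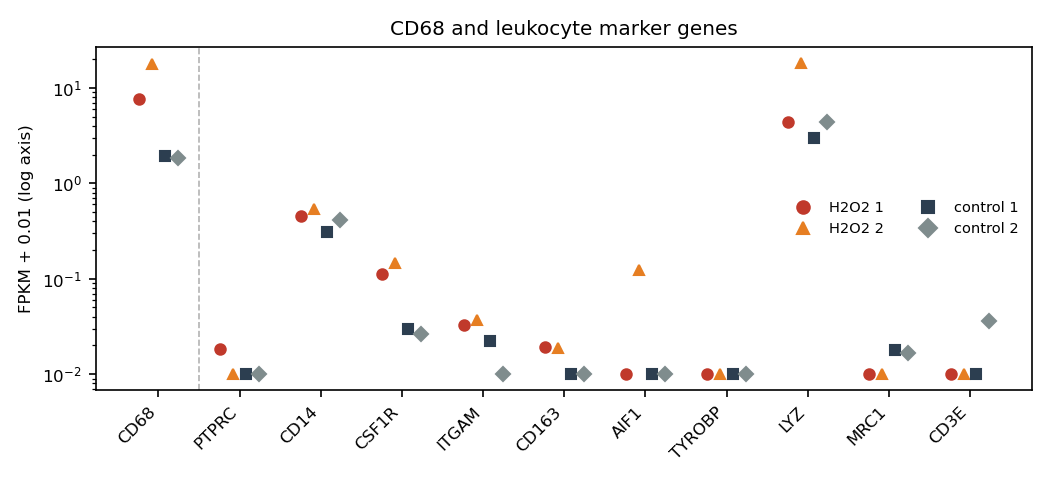
FPKM of CD68 and of 10 of the 11 leukocyte marker genes in each library, on a log axis with a small constant added so that genes listed at 0 can be drawn at the bottom. CD68 separates the 2 H2O2 libraries from the 2 controls, LYZ is the only marker drawn above 1 FPKM, and PTPRC does not exceed 0.00822 FPKM.

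NPC1, the membrane transporter that moves cholesterol out of the lysosome together with NPC2, had 13.7 and 11.2 FPKM in H2O2 libraries, against 8.002 and 9.32 FPKM in controls. Its groups did not overlap, and the change was 0.48 ± 0.18 (SE; adjusted p = 0.427 by limma), 0.34 to 0.61 when each library was left out. The table gives NPC1 a locus on chromosome 18, positions 23503470 to 23586898, that it shares with a neighbouring gene. NPC2, its soluble partner, overlapped between the groups, as given above.

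The structural proteins of the lysosomal membrane showed smaller differences. LAMP1 and LAMP2 coat the inner face of that membrane. LAMP1 had 143 and 136 FPKM in H2O2 libraries, against 162 and 166 FPKM in controls (-0.23 ± 0.16, SE; adjusted p = 0.662 by limma), but its change was 0.00 under loess scaling. LAMP2 had 41.6 and 53.6 FPKM in H2O2 libraries, against 37.4 and 42.2 FPKM in controls, with overlap. CD63, a tetraspanin of late endosomes and the most abundant of the lysosomal genes, had 478 and 584 FPKM in H2O2 libraries, against 531 and 608 FPKM in controls. SCARB2, the receptor that carries glucocerebrosidase to lysosomes, had 26.5 and 18.5 FPKM against 22.1 and 20.03 FPKM in controls. MCOLN1, the calcium channel through which lysosomes signal to TFEB, had 7.15 and 6.35 FPKM in H2O2 libraries, against 7.84 and 6.53 FPKM in controls. LAMP1 was thus below both controls in both treated libraries, and CD63, LAMP2, SCARB2 and MCOLN1 overlapped.

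The proton pump was the class with the most members below the controls: 7 of the 18 tested lay below in both H2O2 libraries (38.9%) and 2 lay above (11.1%), where 24.0% and 19.3% of all genes did. Without ATP6V0A4 and ATP6V1B1, whose direction the filter nearly fixes, 6 of 16 lay below (37.5%) and 1 above (6.25%), against 24.2% and 18.0% of all genes treated in the same way. Its median change was -0.04 as deposited and positive under TPM, quantile and loess scaling, and 10 of the 18 lay within 0.2 of no change. Of the 7, 5 belong to the 8 tested genes of the membrane sector V0 and 2 to the 10 tested genes of the soluble sector V1. V0 mRNA summed to 569 and 588 FPKM in H2O2 libraries, against 633 and 667 FPKM in controls, and V1 mRNA to 365 and 458 FPKM against 403 and 457 FPKM. The V0 sums lay apart, and the V1 sums overlapped. The direction for V0 rests on the scaling: its median was -0.11 as deposited but 0.08 with TPM, 0.08 with quantile and 0.11 with loess scaling. TPM moved the median of all genes from -0.03 to 0.14.

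Within V0, the proteolipid ring and its neighbours were abundant. ATP6V0C, the subunit c whose copies form the rotating ring, had 174 and 196 FPKM in H2O2 libraries, against 220.5 and 226 FPKM in controls (-0.27 ± 0.17, SE; adjusted p = 0.618 by limma), and it stayed negative under TPM, quantile and loess scaling. Its value is uncertain because processed pseudogenes resemble it and because other symbols share its deposited locus. ATP6V0B, another proteolipid of the ring, had 131 and 121 FPKM in H2O2 libraries, against 141 and 134 FPKM in controls. ATP6V0D1, the subunit that couples the ring to the central stalk, had 141 and 134 FPKM in H2O2 libraries, against 142 and 149 FPKM in controls. For ATP6V0B and ATP6V0D1 the change was negative as deposited and positive under TPM, quantile and loess scaling. ATP6V0D2, a paralog used in osteoclasts and kidney, was listed at 0 in all libraries.

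Subunit e is encoded by ATP6V0E1 and ATP6V0E2. ATP6V0E2 had 31.1 and 40.6 FPKM in H2O2 libraries, against 41.6 and 63.4 FPKM in controls (-0.52 ± 0.25, SE; adjusted p = 0.518 by limma). Its change was -0.22 without control 2, -0.33 without H2O2 library 1 and -0.82 without control 1. ATP6V0E1 had 63.4 and 70.0 FPKM in H2O2 libraries, against 60.1 and 67.0 FPKM in controls. ATP6V0E2 thus made up 32.9% and 36.7% of the e subunit FPKM in treated libraries, against 40.9% and 48.6% in controls, again a share that no common factor alters.

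Subunit a anchors the pump in a given membrane and has 4 paralogs, of which the symbol rule took 3, since the fourth, a3, is named TCIRG1. ATP6V0A4, the paralog known from kidney acid-secreting cells, had 1.16 and 1.88 FPKM in H2O2 libraries, against 0.380 and 0.328 FPKM in controls. Its change was 0.88 ± 0.23 (SE; adjusted p = 0.311 by limma), and 0.67 to 1.09 when each library was left out. It reached the level for testing in the H2O2 libraries alone and could therefore hardly have come out lower, and a neighbouring gene shares its locus (chromosome 7, positions 138706294 to 138838101). ATP6V0A1, the widely used a1, had 15.4 and 17.4 FPKM in H2O2 libraries, against 19.4 and 19.2 FPKM in controls (-0.22 ± 0.16, SE; adjusted p = 0.669 by limma). ATP6V0A2, found in the Golgi and endosomes, had 11.6 and 6.80 FPKM in H2O2 libraries, against 8.14 and 7.75 FPKM in controls. TCIRG1, known from osteoclasts and lysosomes, had 37.4 and 36.5 FPKM in H2O2 libraries, against 27.4 and 30.0 FPKM in controls (0.35 ± 0.16, SE; adjusted p = 0.478 by limma).

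As shares of the summed FPKM of the 4 paralogs, TCIRG1 was 57.1% and 58.3% in H2O2 libraries, against 49.6% and 52.4% in controls. ATP6V0A1 was 23.5% and 27.8% in H2O2 libraries, against 35.0% and 33.5% in controls. ATP6V0A4 was 1.77% and 3.0% in H2O2 libraries, against 0.686% and 0.573% in controls. The shares of TCIRG1 and ATP6V0A4 were higher and that of ATP6V0A1 lower in both treated libraries, while that of ATP6V0A2 overlapped. The sum itself was 65.5 and 62.6 FPKM in H2O2 libraries, against 55.4 and 57.2 FPKM in controls.

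**Figure D3:**
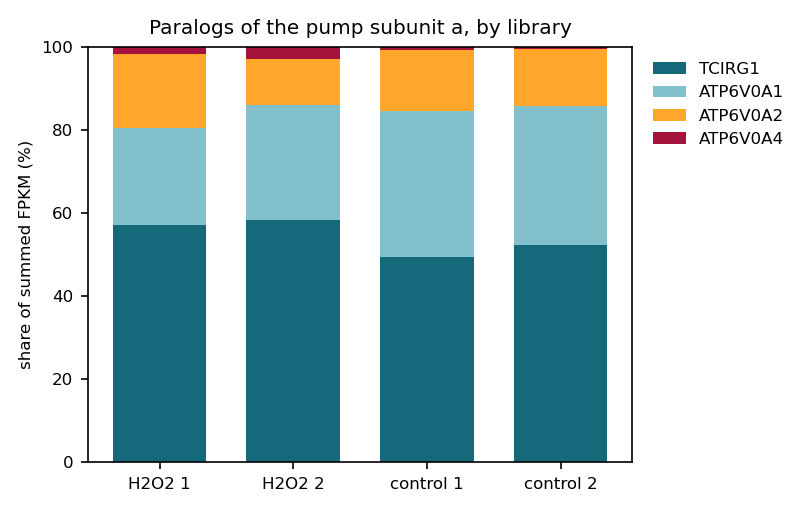
Share of the summed FPKM of the 4 subunit a paralogs that each contributes, by library, in percent. TCIRG1 takes 57.1% and 58.3% in the H2O2 libraries against 49.6% and 52.4% in controls, and ATP6V0A1 takes 23.5% and 27.8% against 35.0% and 33.5%.

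In the soluble V1 sector, ATP6V1A and ATP6V1B2 form the ring that hydrolyses ATP. ATP6V1A had 25.4 and 31.1 FPKM in H2O2 libraries, against 24.9 and 29.7 FPKM in controls, and ATP6V1B2 had 51.9 and 54.5 FPKM against 53.2 and 55.8 FPKM in controls. ATP6V1B1, the paralog of kidney and inner ear, had 0.536 and 0.736 FPKM in H2O2 libraries, against 1.09 and 1.35 FPKM in controls (-0.44 ± 0.21, SE; adjusted p = 0.514 by limma). It reached the level for testing in the controls alone, the reverse of ATP6V0A4, and it made up 1.02% and 1.33% of B subunit FPKM in H2O2 libraries against 2.01% and 2.37% in controls. ATP6V1G1, a subunit of the outer stalk, had 65.1 and 72.0 FPKM in H2O2 libraries, against 76.7 and 83.6 FPKM in controls (-0.22 ± 0.16, SE; adjusted p = 0.675 by limma). ATP6V1E2, a testis paralog of a stalk subunit, had 1.53 and 1.21 FPKM in H2O2 libraries, against 1.16 and 0.842 FPKM in controls.

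For the other V1 genes tested the groups overlapped. ATP6V1F had 116 and 164 FPKM in H2O2 libraries, against 137 and 167 FPKM in controls, the highest level in the sector. ATP6V1E1 had 42.0 and 53.9 FPKM against 45.6 and 53.3 FPKM in controls, and ATP6V1D had 26.3 and 36.7 FPKM against 27.9 and 27.3 FPKM. These are parts of the stalks that link the 2 sectors. ATP6V1C1 had 16.9 and 23.2 FPKM in H2O2 libraries, against 15.6 and 18.7 FPKM in controls. ATP6V1H, a regulatory subunit, had 18.9 and 20.8 FPKM against 19.7 and 19.2 FPKM in controls. Below the level for testing, ATP6V1G2, a brain paralog, had 0.643 and 1.38 FPKM in H2O2 libraries, against 0.482 and 0.502 FPKM in controls. ATP6V1C2 had 0.327 and 0.479 FPKM against 0.290 and 0.308 FPKM in controls, ATP6V1FNB, a neighbour of ATP6V1F rather than a subunit, had 0.532 and 0.339 FPKM against 0.2005 and 0.298 FPKM, and ATP6V1G3 was listed at 0 throughout.

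The promoter sequences shown above were read beside these values. Windows of 300 bases, 250 before and 50 from the transcript start, were searched on both strands for CACGTG, which is its own reverse complement, and for TCACGTGA, a longer form that contains it. A window was found for 38 of the 53 genes. A gene was counted if any of its windows held the motif, and the 38 include genes too low for testing. CACGTG occurred in 12 of the 38 (31.6%), against 8.77% of all 27305 symbols with a window and 13.0% of the tested genes with one. TCACGTGA occurred in 6 of the 38 (15.8%), against 1.18% of all symbols with a window and 2.43% of the tested genes with one. The 12 were CTSA, CTSD, CTSF, GAA, NEU1, LAMP1, CD63, MCOLN1, ATP6V0B, ATP6V0D1, ATP6V0E2 and ATP6V1G1. LAMP1 held 6 copies, of which the sequence above shows 5, and the sixth runs across the transcript start. A match is a description of the letters, and no binding was measured.

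Of the 11 tested genes with the hexamer, GAA alone lay apart upward, LAMP1, ATP6V0B, ATP6V0D1, ATP6V0E2 and ATP6V1G1 lay apart downward, and 5 overlapped, with a median change of -0.11. Over all 1168 tested genes with the hexamer, 17.5% lay apart upward and 28.0% downward. Of the 23 tested genes with a window but no copy, 7 lay apart upward (30.4%), 6 downward (26.1%) and 10 overlapped, with a median of 0.05. Over all 7843 tested genes with a window but no copy, 18.5% lay apart upward and 24.3% downward. The 12 tested members without a window could not be placed in either set. Of these, 11 had a positive change, 3 lay apart upward (25%) and 0 downward, with a median of 0.14. Over all tested genes the median was -0.06 for the 1168 with the hexamer and -0.03 for the 7843 without. The downward direction of ATP6V0B, ATP6V0D1 and LAMP1 is not kept under every scaling, as given above.

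**Figure D4:**
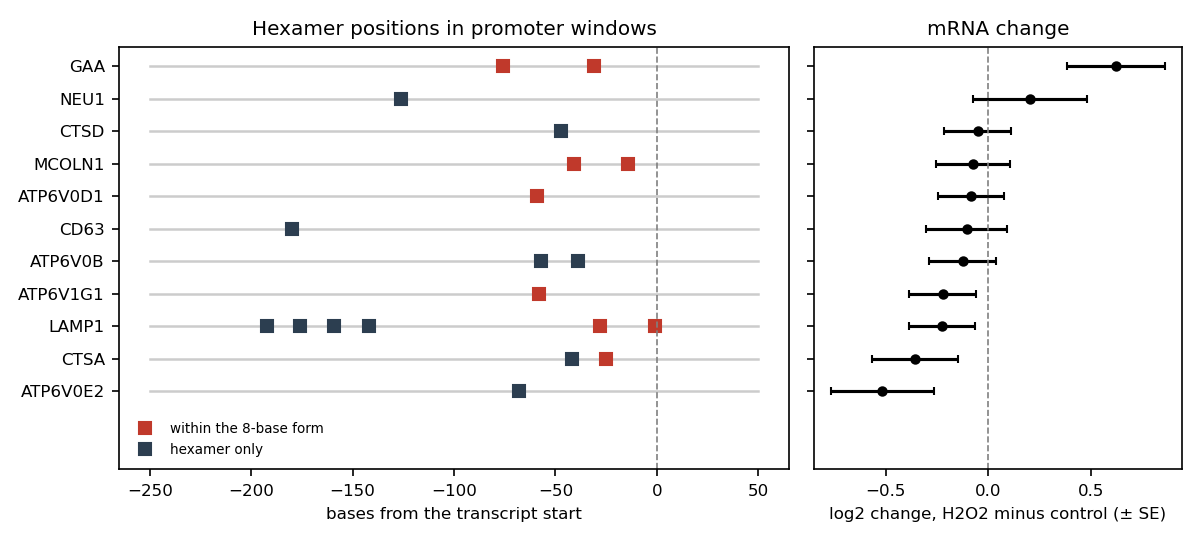
Left, position of the first base of each CACGTG in the promoter window of the 11 tested lysosomal genes that hold one, in bases from the transcript start, with copies inside TCACGTGA in red (1 window per gene). Right, the log2 change of the same gene, H2O2 minus control, ± SE. GAA, at the top, is the 1 gene among them whose H2O2 libraries both exceed the controls.

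The regulators and partners of the lysosome, a list of 61 further genes of which 55 were tested, showed no common direction: 30 changes were positive and 25 negative, with a median of 0.01. None passed the adjusted threshold. At an unadjusted p under 0.05 by limma there was 1 in each direction (1.82% each), against 6.22% higher and 4.91% lower over all genes tested. The groups lay apart upward for 13 of the 55 (23.6%) and downward for 11 (20%), against 19.3% and 24.0% of all genes tested. TFEB had 2.93 and 2.14 FPKM in H2O2 libraries, against 1.74 and 1.27 FPKM in controls (0.49 ± 0.22, SE; adjusted p = 0.482 by limma). TFE3 had 23.2 and 20.4 FPKM in H2O2 libraries, against 18.6 and 16.7 FPKM in controls (0.29 ± 0.17, SE; adjusted p = 0.594 by limma). Both treated libraries exceeded both controls for each of these factors, whose activity is set mainly by their location in the cell rather than by their mRNA. MITF, the third member of the family in the list, stayed under 1 FPKM. The 2 mannose 6-phosphate receptors had small changes, 0.14 for IGF2R and 0.12 for M6PR. IGF2R had 42.2 and 30.8 FPKM in H2O2 libraries against 34.5 and 31.0 FPKM in controls, with overlap. M6PR had 72.3 and 69.3 FPKM against 64.2 and 65.8 FPKM, above the controls in both H2O2 libraries.

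HYAL1, a lysosomal hyaluronidase, and LAMTOR2, part of the complex that holds mTORC1 on the lysosome, were the 2 genes of that list with an unadjusted p under 0.05. HYAL1 had 2.68 and 5.07 FPKM in H2O2 libraries, against 1.46 and 1.87 FPKM in controls (0.83 ± 0.28, SE; adjusted p = 0.391 by limma). Its change was 0.47 without H2O2 library 2 and 1.19 without H2O2 library 1. LAMTOR2 had 60.9 and 83.0 FPKM in H2O2 libraries, against 108 and 116 FPKM in controls (-0.65 ± 0.20, SE; adjusted p = 0.357 by limma), and its change was -0.43 without H2O2 library 1. LAMTOR4, another subunit of that complex, had 53.0 and 88.3 FPKM in H2O2 libraries, against 96.3 and 112 FPKM in controls. NAGPA, which exposes the mannose 6-phosphate tag, had 8.84 and 8.21 FPKM in H2O2 libraries, against 11.2 and 11.3 FPKM in controls. TMEM192, a lysosomal membrane protein, had 11.7 and 12.1 FPKM in H2O2 libraries, against 9.55 and 8.83 FPKM in controls. For the accessory proteins of the pump, ATP6AP1 had 42.8 and 41.7 FPKM in H2O2 libraries against 45.3 and 46.5 FPKM in controls, and ATP6AP2 had 82.8 and 116 FPKM against 93.6 and 101 FPKM.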

How the data were processed

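RNA of SW620 cells was sequenced in 2 H2O2 and 2 control libraries, prepared from 1 µg of total RNA with a strand-keeping kit, as the labels' protocols state. STAR 2.5, Cufflinks 2.2.1 and hg38 appear in the submitters' processing notes without a role or order. The sources used here give neither the strand setting nor the annotation. The authors deposited 1 FPKM value per gene and library, and read depth is unknown. Cufflinks FPKM are estimates, uncertain where genes overlap or have near-identical copies, and 16 of the 53 members share a deposited locus with another symbol.

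From these, log2(FPKM + 1) was computed here from the deposited values. The 11318 genes that reached 1 FPKM in 2 or more libraries were compared between groups with limma 3.58.1 in R 4.3.3, with a variance trend on abundance. The two-sided test had 6.28 degrees of freedom, 2 of them residual. Adjustment was by Benjamini-Hochberg over all genes, at a threshold of 0.05. Class medians and counts are descriptions. A few listed marker and partner genes are not reported singly here. Coordinates are 1-based on hg38. Promoter windows were matched by symbol to RefSeq (GRCh38.p14), for 38 of 53 members. The members and lists were chosen with earlier results of these data known. Genes were named by rule: CD68, LAMP1, LAMP2, CTSB, CTSD and MCOLN1, the 2 most abundant and the 5 with the smallest p in each class, and selected partners. The other members are given so that all are accounted for. There were 13 alternatives: 2 pseudocounts, 2 filters, 3 scalings, a variance prior without a trend, a replicate block and leaving out each of the 4 libraries. Leaving out genes that reached 1 FPKM in 1 group only was added after the data were seen. Python 3.11.15 and matplotlib 3.10.9 drew the figures.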

Additional observations from a re-analysis of the deposited data

How the results depend on the processing

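No gene passed as reported, but 5 did with a mean FPKM of at least 5, 32 with TPM and 8 to 140 when 1 library was left out. Of the lysosomal members, 0 passed as reported, 1 with TPM (CD68) and 0 to 2 when 1 library was left out. A fit that leaves out a library assumes that the lone sample varies like the others. With the replicate number as a block, 587 genes and 5 members passed (CD68, CTSB, CTSH, GAA and ATP6V0A4). Same-numbered libraries deviated together (r = 0.451 over 11318 genes and 0.490 over the 46 members tested). There are only 2 pairs, and the labels do not say whether a number marks a shared culture. Medians of classes moved with the scaling, in the order TPM, quantile, loess: 0.13, 0.15 and 0.18 for cathepsins, 0.141, 0.0663 and 0.0940 for the pump, and 0.25, 0.21 and 0.16 for membrane proteins. The glycosidase median was 0.29 with TPM. Without a filter the cathepsin median was 0.16 and the pump median 0.0268. When 1 library was left out, medians ran from -0.11 to 0.0049 for cathepsins, -0.0664 to 0.27 for glycosidases, -0.10 to 0.43 for other hydrolases, 0.0016 to 0.14 for membrane proteins and -0.0820 to 0.0466 for the pump. The sign of small changes turned for CTSD, GRN, CD63 and ATP6V1F with TPM (0.13, 0.14, 0.0813 and 0.0505), quantile (0.15, 0.10, 0.21 and 0.0664) and loess scaling (0.18, 0.14, 0.16 and 0.0926). It also turned for MCOLN1 (0.0919) and ATP6AP1 (0.0675) with TPM and for LAMP1 (0.0044) with loess. When 1 library was left out, GRN ran from -0.53 to 0.43, CD63 from -0.25 to 0.0380, ATP6V1F from -0.38 to 0.11, IGF2R from -0.0818 to 0.36, HEXA from -0.0664 to 0.26, NEU1 from -0.13 to 0.54, MAN2B1 from -0.0470 to 0.27, ARSA from -0.0034 to 0.36, ATP6AP2 from -0.23 to 0.25, MCOLN1 from -0.19 to 0.0395 and CTSD from -0.11 to 0.0049. The cause was not tested. The 7 members with an unadjusted p under 0.05 stayed positive with TPM, quantile and loess scaling. In each of them both H2O2 libraries lay above both controls, so the other alternatives could not turn the sign. Read depth is unknown, so its limit on low genes cannot be given.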

Other observations

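Enzymes that degrade glycosaminoglycans, long sugar chains of the matrix, were read from the wider lysosome list after their values were seen. Beside HYAL1, IDS, the iduronate sulfatase, had 6.70 and 8.88 FPKM in H2O2 libraries, against 4.90 and 6.51 FPKM in controls. It lay above the controls in both H2O2 libraries, with an adjusted p of 0.583 by limma. GALNS, IDUA, SGSH, HGSNAT, ARSB and HYAL2 overlapped between the groups. Of the 5 LAMTOR genes, LAMTOR1, LAMTOR2 and LAMTOR4 lay below the controls in both H2O2 libraries, as did 24.0% of all genes tested. LAMTOR1 had 69.1 and 80.6 FPKM in H2O2 libraries, against 87.1 and 91.0 FPKM in controls, and LAMTOR3 and LAMTOR5 overlapped.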
